A study of Mus musculus with 36 samples.

Results

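The 10 genes described here handle lipid at and inside the macrophage: the scavenger receptors Cd36, Msr1, Scarb1 and Cd68, the lipid uptake and storage genes Lpl, Fabp4 and Plin2, and the cholesterol efflux genes Abca1, Abcg1 and Apoe. They were chosen by name, as a list of scavenger receptor and lipid handling genes, and are 10 of the 40354 genes in the count tables. Earlier results of these data were known when the list was made. Counts of calls among the 10, set beside shares of all genes below, are therefore a description. Each of the 10 passed the filter on low counts, and their counts ranged from 20 to 198539 per library.

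Macrophages take up modified lipoproteins, dead cells and free fatty acids through scavenger receptors, store the lipid as droplets of triglyceride and cholesterol ester, and return cholesterol to apolipoproteins through ABC transporters. When uptake exceeds efflux the cells fill with droplets and become foam cells, the lipid-laden macrophages of the atherosclerotic plaque. Several of these genes are targets of the nuclear receptors PPARγ, which senses fatty acids, and LXR, which senses oxidized cholesterol. The programme as a whole is a macrophage one, but some of its genes, such as Plin2 and Abca1, were already expressed here before induction. The genes were followed while B cells were turned into macrophages.

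RNA-seq was performed on primary B cells from the bone marrow of C57BL/6J mice, infected with a retrovirus that carries the myeloid transcription factor C/EBPα fused to the estrogen receptor (ER) together with human CD4 as a surface tag. The virus encoded either wild-type C/EBPα (WT) or one of 2 versions in which arginine 35 was replaced, by alanine (R35A) or by lysine (R35K). Cells positive for hCD4 were plated on inactivated mouse embryo fibroblasts (MEFs) with IL-7, IL-3, FLT-3, CSF-1 and SCF, and 17β-estradiol moved the fusion protein into the nucleus, which starts B cell to macrophage transdifferentiation (BMT). Per the methods, later changes of medium, every 2 days, left out IL-7. At 120 hpi, time after induction and the loss of IL-7 therefore cannot be told apart. For each construct, 2 replicates were sequenced before induction and after 1, 3, 6 and 18 hr and 120 hr post induction (hpi), giving 36 libraries in 18 groups. The 0 hpi cells carried the same virus as the induced cells and served as the reference of their own construct. Mouse ages, and whether the replicates came from separate animals, are not given in the sources used here, so p-values measure the spread between these libraries. All groups shared the feeder layer, and the retroviral promoter, not the Cebpa locus, drives the fusion gene.

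Total counts per library ran from 13044456 to 23131776 (median 15471230), and all levels below are CPM, counts scaled to the same library total with TMM factors, unless another scale is named. Cebpa itself, to which reads of the fusion gene may also map, was at 34.9 to 43.0 CPM in the 6 libraries at 0 hpi, and the substitution cannot be read from gene counts. The constructs differed in Cebpa after induction: at 1 hpi it was at 105 and 101 CPM in WT, 52.8 and 55.6 in R35A and 91.0 and 87.7 in R35K cells, and at 18 hpi at 38.9 and 38.5, 52.9 and 52.3, and 83.0 and 90.9 CPM in the same order. The part of these levels in the differences between constructs below was not tested. The summed level of 8 B cell markers fell from between 3383 and 3715 CPM at 0 hpi to between 63.6 and 138 CPM at 120 hpi, and that of 8 macrophage markers went from between 59.9 and 68.1 CPM to between 22090.1 and 33489 CPM. Markers of fibroblasts, the feeder cells, summed to between 2151 and 2318 CPM at 0 hpi, to between 3575 and 5347 CPM from 1 to 18 hpi and to between 204 and 755 CPM at 120 hpi. Adipocyte markers, which matter because Lpl, Fabp4, Plin2 and Cd36 are also fat cell genes, summed to at most 0.869 CPM, and none of the 6 (Adipoq, Lep, Cidec, Plin1, Cfd and Retn) exceeded 9 counts. A ribosomal RNA gene, CT010467.1, took 0.73% of the counts in replicate 1 of WT at 6 hpi and 0.473% in replicate 2 of R35K at 3 hpi, against at most 0.149% in the other 34 libraries. Because these are bulk samples, fewer cells of a type and less RNA per cell cannot be told apart.

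**Figure D1:**
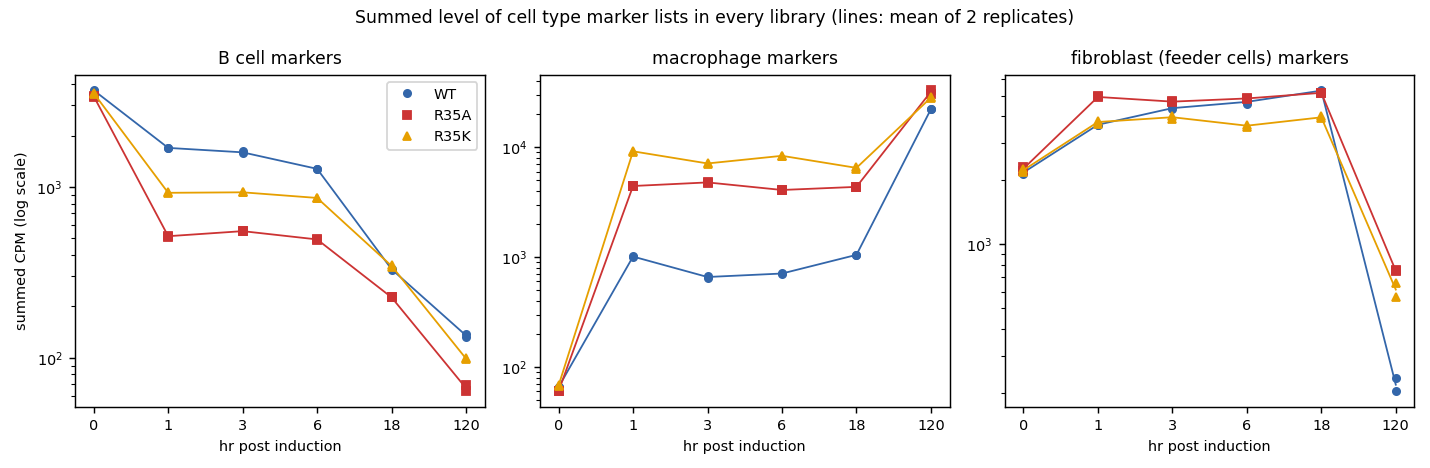
Summed CPM (log scale) of the marker lists of B cells, macrophages and fibroblasts in every library against hr post induction (equally spaced categories), with lines through the mean of the 2 replicates. Macrophage markers in R35A and R35K cells at 1 hpi lay above those of WT cells at 18 hpi, and fibroblast markers were lowest at 120 hpi in all 3 constructs.

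Promoter sequences were found in RefSeq for 5 of the 10 genes (Cd36, Cd68, Plin2, Abca1 and Apoe), as the 250 bases before an annotated transcript start. The stretches were searched on both strands for TTGCNNAA, the core letters of a C/EBP site, and for GAGGAA, the core of a PU.1 site. The last search was for AGGTCA followed after any 4 bases by AGGTCA, an exact form of the repeat read by LXR. Repeats that differ from these letters were not counted. The first occurs in 9.56% of 32851 promoter entries of the same length, the next in 23.3%, both together in 2.07%, and the LXR letters in 0.0152%. The sequences of 3 genes are shown because their RNA followed 3 different courses below: Cd68 rose early in every construct, Apoe passed the threshold at 1 hpi in the 2 substitution constructs and lay just under it in WT, and Abca1 was not called before 120 hpi in any. They were taken from RefSeq and are written 5′ to 3′ on the gene's strand, from GRCm38.p6 (mm10), with matches in capitals, at chr11:69666171-69666420 for Cd68, chr7:19699189-19699438 for Apoe and chr4:53159896-53160145 for Abca1, all on the minus strand.
Cd68: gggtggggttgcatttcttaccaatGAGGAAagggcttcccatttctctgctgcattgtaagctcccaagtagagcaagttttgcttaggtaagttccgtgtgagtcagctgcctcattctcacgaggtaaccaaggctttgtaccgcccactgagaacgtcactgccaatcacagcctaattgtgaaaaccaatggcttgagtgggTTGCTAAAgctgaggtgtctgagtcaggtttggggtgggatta
Apoe: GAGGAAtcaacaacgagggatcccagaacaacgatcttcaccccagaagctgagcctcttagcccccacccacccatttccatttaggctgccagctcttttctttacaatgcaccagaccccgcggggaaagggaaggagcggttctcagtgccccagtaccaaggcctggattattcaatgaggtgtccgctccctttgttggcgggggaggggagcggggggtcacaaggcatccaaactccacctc
Abca1: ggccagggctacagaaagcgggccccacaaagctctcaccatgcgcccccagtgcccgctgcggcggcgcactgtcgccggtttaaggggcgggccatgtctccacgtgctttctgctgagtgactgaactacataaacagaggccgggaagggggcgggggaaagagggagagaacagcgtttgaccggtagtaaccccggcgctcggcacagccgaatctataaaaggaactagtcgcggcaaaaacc
The Cd68 stretch held both TTGCTAAA, starting at base -43 from the transcript start, and GAGGAA, at base -225. The Apoe stretch held GAGGAA at base -250, and a further Apoe entry, at chr7:19698399-19698648, held it at base -132. Another Apoe entry, at chr7:19698622-19698871, held no match. No match was found in these windows of Abca1, Plin2 and Cd36, which says only that those exact letters are not in them. Sites with other letters, among them inexact LXR repeats, were not searched for.

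All 10 genes were higher at 120 hpi than at 0 hpi in each construct, and the 10 fell into 3 kinds of early course. Msr1, Lpl, Cd68 and Fabp4 rose within 1 hr in WT cells as well as in R35A and R35K cells. Apoe and Plin2 passed the threshold at 1 hpi in R35A and R35K cells and not in WT cells, while Cd36 rose in all 3 by unequal amounts and Scarb1 passed in R35K cells alone. This grouping rests on the threshold, because mean Apoe and Plin2 in WT cells at 1 hpi were 1.47- and 1.40-fold those at 0 hpi. Abca1 and Abcg1 were not called higher before 120 hpi, apart from Abcg1 in R35K cells at 18 hpi, although Abca1 in WT cells at 18 hpi lay just under the fold threshold. Markers of fibroblasts and neutrophils also changed between 0 and 1 hpi, as given below, and their part in these courses was not tested. A gene was called where it changed at least 1.5-fold with an adjusted p of at most 0.05 in edgeR's quasi-likelihood test over all genes. Errors are standard errors (SE) of the fitted log2 change, and gene positions are the whole gene, exons and introns, in mm10 (GENCODE release M21).

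Relative to 0 hpi, the number of the 10 genes called higher in WT cells was 5 after 1 hr, then 4, 6 and 7 after 3, 6 and 18 hr, and 10 after 120 hr, and none was called lower. In time order, the share of all 16988 genes tested that was called higher was 10.7%, 12%, 15.1%, 23.9% and 23.1%, and the share called lower was 9.27%, 11.5%, 14.7%, 23.2% and 40.2%. In R35A cells the counts at the same times were 7, 8, 7, 8 and 10, beside 18.3%, 17.9%, 18.5%, 21% and 24.2% of all genes, with 1 gene called lower, Abcg1 at 1 hpi (18.9% of all genes, and 19%, 19.2%, 21.6% and 39% at the later times). R35K cells had 8, 8, 8, 9 and 10 genes called higher, beside 15.5%, 15.9%, 16.3%, 18.4% and 25.4% of the 16434 genes tested in that table, and none lower, beside 17.4%, 16.8%, 17.8%, 20.5% and 38.5%. The median log2 change of the 10 genes at 1 hpi was 0.80 in WT, 1.955 in R35A and 3.04 in R35K cells, beside medians over all genes of -0.013, -0.0075 and -0.043. By 120 hpi these medians were 4.89, 4.52 and 4.80, beside -0.36, -0.31 and -0.28. Scaling with DESeq2 size factors raised the median of all genes at 120 hpi by 0.16, 0.13 and 0.14, and left all 30 of these calls as they were.

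**Figure D2:**
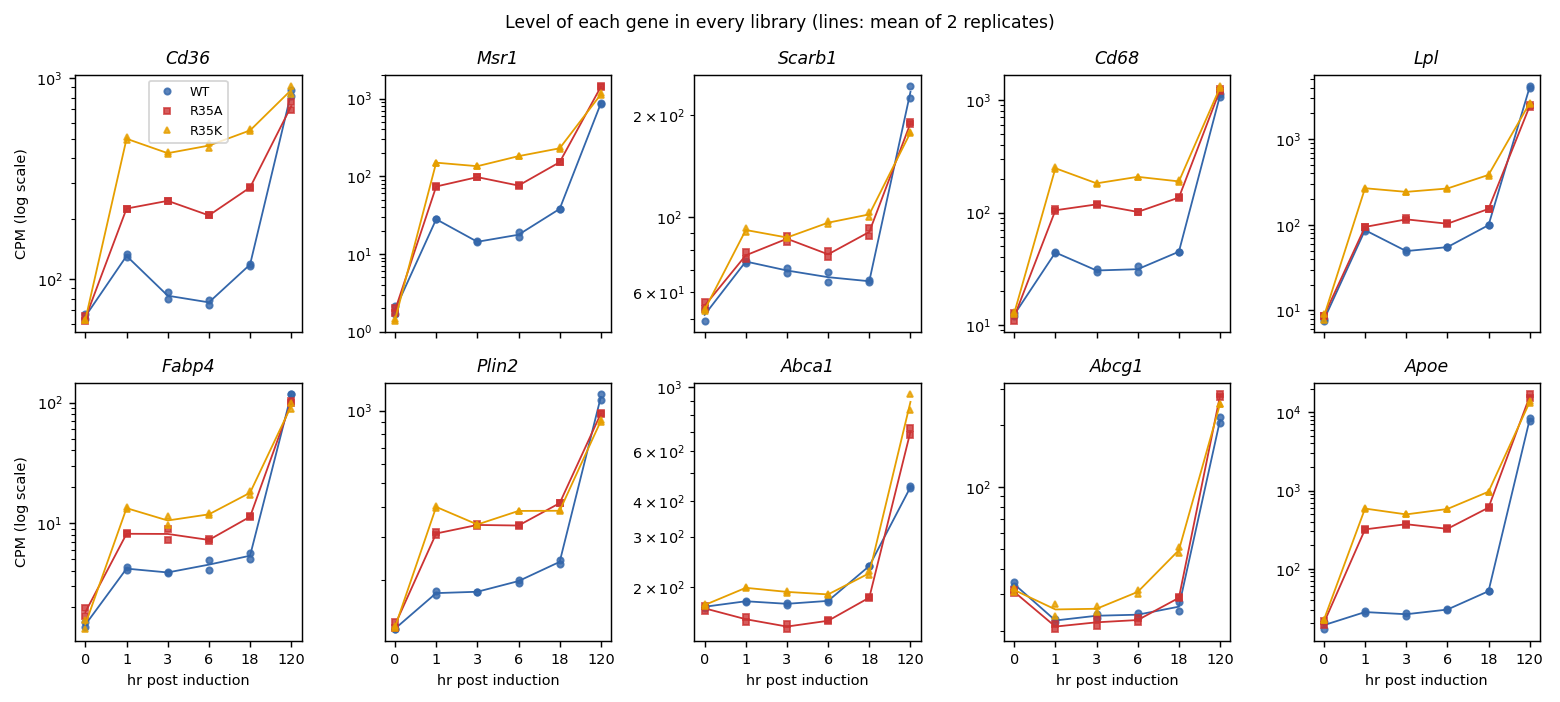
CPM (log scale, with its own range for each gene) of the 10 genes in every library against hr post induction (equally spaced categories), with lines through the mean of the 2 replicates. From 1 to 18 hpi the R35A and R35K points of Msr1, Cd68, Cd36, Plin2 and Apoe lie above the WT points, while Abca1 in R35A cells lies below them, at 142 to 184 CPM against 173 to 237 CPM.

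Cd36 (chr5:17781690-17888801, minus strand) encodes the class B receptor for oxidized low-density lipoprotein and long-chain fatty acids. In WT cells it stood at 63.5 and 67.0 CPM at 0 hpi, 133 and 128 at 1 hpi, 85.8 and 79.5 at 3 hpi, 117 and 119 at 18 hpi and 819 and 874 at 120 hpi. The R35A cells had 65.6 and 62.1 CPM at 0 hpi, 224 and 224 at 1 hpi, 286 and 285 at 18 hpi and 694 and 759 at 120 hpi. R35K cells reached 492 and 507 CPM at 1 hpi from 62.8 and 62.9 at 0 hpi, and ended at 836 and 912 at 120 hpi. The 3 constructs overlapped or nearly so at 0 hpi, stood apart without overlap from 1 to 18 hpi in the order WT, R35A, R35K, and at 120 hpi WT and R35K overlapped with R35A below them. The log2 change at 1 hpi was 1.02 ± 0.049 (SE) in WT (adjusted p = 3.82e-24), 1.79 ± 0.046 in R35A and 2.94 ± 0.045 in R35K cells. In WT cells Cd36 was again under the fold threshold at 3 hpi (0.34 ± 0.051) and 6 hpi (0.22 ± 0.051) and above it at 18 hpi (0.85 ± 0.049). At 1 hpi R35K cells had covered 78.7% of their own log2 change to 120 hpi, R35A cells 51.7% and WT cells 27%. The rise from 18 to 120 hpi in R35K cells, 0.61 ± 0.039, was just past the threshold, and at 0.58 without replicate 2 at 120 hpi it was not.

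Msr1 (chr8:39581685-39642673, minus strand) encodes the class A macrophage scavenger receptor, which binds acetylated and oxidized lipoproteins. It was among the least expressed members at 0 hpi, with 2.12 and 1.71 CPM in WT, 1.74 and 2.02 in R35A and 1.45 and 1.39 in R35K cells. After 1 hr the levels were 28.0 and 27.9 CPM in WT, 74.9 and 72.6 in R35A and 150.1 and 149 in R35K cells. At 18 hpi they were 38.1 and 37.9 CPM in WT, 151 and 152 in R35A and 235 and 223 in R35K cells. Every induced library was above every 0 hpi library, and R35K exceeded R35A, which exceeded WT, at each time from 1 to 18 hpi. The log2 change at 1 hpi was 3.88 ± 0.11 in WT, 5.25 ± 0.088 in R35A and 6.66 ± 0.082 in R35K cells (adjusted p = 2.28e-33, 2.59e-44 and 2.82e-36). The order of the last libraries was different, with 846 and 885 CPM in WT, 1394 and 1438 in R35A and 1097 and 1166 in R35K cells at 120 hpi.

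Scarb1 (chr5:125277087-125341094, minus strand) encodes SR-B1, the receptor for high-density lipoprotein, which exchanges cholesterol in both directions. It changed least among the receptors: WT cells had 53.4 and 49.5 CPM at 0 hpi, 74.4 and 73.4 at 1 hpi, 65.1 and 64.2 at 18 hpi and 244 and 225 at 120 hpi. R35A cells had 53.5 and 55.9 CPM at 0 hpi, 79.0 and 75.3 at 1 hpi, 88.1 and 92.7 at 18 hpi and 188 and 191 at 120 hpi. In R35K cells it had 53.0 and 53.5 CPM at 0 hpi, 92.9 and 90.4 at 1 hpi, 104 and 100.1 at 18 hpi and 178 and 178 at 120 hpi. The constructs were close together at 1 hpi and in the order WT, R35A, R35K at 18 hpi, and WT was highest at 120 hpi. The log2 change at 1 hpi was 0.54 ± 0.053 in WT and 0.47 ± 0.05 in R35A cells, both under the fold threshold, and 0.73 ± 0.046 in R35K cells, past it. Without replicate 1 of WT at 0 hpi the WT value, 0.61, passed as well. By 120 hpi the fitted change of Scarb1 from 0 hpi was 4.17-fold in WT, 3.18-fold in R35A and 3.12-fold in R35K cells. The ratios of mean CPM, which use other scaling factors, were 4.56, 3.46 and 3.34 in the same order.

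Cd68 (chr11:69664213-69666153, minus strand) encodes macrosialin, a glycoprotein of late endosomes and lysosomes that is used as a macrophage marker. Its level in WT cells was 12.7 and 12.0 CPM at 0 hpi, 44.8 and 43.4 at 1 hpi, 44.8 and 44.9 at 18 hpi and 1138 and 1065 at 120 hpi. R35A cells had 107 and 103 CPM at 1 hpi and 1213 and 1252 at 120 hpi, from 10.9 and 12.7 at 0 hpi. R35K cells had 252 and 243 CPM at 1 hpi, 193 and 185 at 18 hpi and 1326 and 1268 at 120 hpi. The 1 hpi level in R35K cells was thus the highest before 120 hpi in any construct. Its log2 change at 1 hpi was 1.86 ± 0.071 in WT, 3.11 ± 0.061 in R35A and 4.23 ± 0.052 in R35K cells (adjusted p = 6.2e-28, 3.11e-41 and 3.27e-36). From 18 to 120 hpi it rose by a further 4.49 ± 0.046, 3.08 ± 0.041 and 2.72 ± 0.039 on the log2 scale.

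Lpl (chr8:68880491-68907448, plus strand) encodes lipoprotein lipase, the secreted enzyme that frees fatty acids from triglyceride-rich lipoproteins. In WT cells it had 7.60 and 7.90 CPM at 0 hpi, 83.7 and 89.9 at 1 hpi, 50.9 and 47.9 at 3 hpi, 98.9 and 99.5 at 18 hpi and 3983 and 4160.1 at 120 hpi. R35A cells stood at 8.58 and 8.62 CPM at 0 hpi, 93.5 and 95.6 at 1 hpi, 119 and 113 at 3 hpi and 2496 and 2386 at 120 hpi. The R35K values were 9.15 and 7.81 CPM at 0 hpi, 263 and 272 at 1 hpi, 393 and 374 at 18 hpi and 2615 and 2679.6 at 120 hpi. Lpl therefore rose in WT cells by about as much as in R35A cells during the first hour, then the 2 courses parted, and at 120 hpi the order was turned around, with WT cells highest. The log2 change at 1 hpi was 3.51 ± 0.062 in WT, 3.43 ± 0.057 in R35A and 4.92 ± 0.056 in R35K cells. By 120 hpi it was 8.91 ± 0.055, 8.03 ± 0.053 and 8.18 ± 0.057, the largest of the 10 in WT cells.

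Fabp4 (chr3:10204088-10208576, minus strand), a cytosolic carrier of fatty acids in adipocytes and macrophages, had the lowest CPM among the storage genes. It was at 1.37 and 1.49 CPM in WT, 1.68 and 1.97 in R35A and 1.56 and 1.32 in R35K cells at 0 hpi. At 1 hpi it had 4.07 and 4.29 CPM in WT, 8.19 and 8.08 in R35A and 13.5 and 13.1 in R35K cells. At 120 hpi the levels were 117 and 117 CPM in WT, 98.4 and 103 in R35A and 99.4 and 88.0 in R35K cells. All 6 libraries at 1 hpi exceeded all 6 at 0 hpi, and all 6 at 120 hpi exceeded the rest. Its log2 change at 1 hpi was 1.57 ± 0.21 in WT, 2.12 ± 0.16 in R35A and 3.14 ± 0.17 in R35K cells, with larger standard errors than any other member.

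Plin2 (chr4:86648386-86670060, minus strand) encodes perilipin 2, the coat protein of lipid droplets in most cells. It was already well expressed at 0 hpi, with 126 and 126 CPM in WT, 127 and 134 in R35A and 127 and 129 in R35K cells. At 1 hpi the levels were 179.8 and 173 CPM in WT, 315 and 306 in R35A and 404 and 396 in R35K cells. At 18 hpi they were 243 and 232 CPM in WT, 416 and 414 in R35A and 387 and 385 in R35K cells, so that R35A had passed R35K. WT cells were highest at 120 hpi, with 1166 and 1110.1 CPM against 971 and 973 in R35A and 918 and 894 in R35K cells. The log2 change at 1 hpi was 0.51 ± 0.038 in WT, under the fold threshold, 1.23 ± 0.037 in R35A and 1.60 ± 0.037 in R35K cells, and WT cells passed it from 6 hpi (0.64 ± 0.038).

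Abca1 (chr4:53030787-53159895, minus strand) encodes the transporter that loads cholesterol and phospholipid onto lipid-poor apolipoprotein A-I. It had 171 and 169 CPM at 0 hpi, 179 and 177 at 1 hpi, 237 and 236 at 18 hpi and 443 and 451 at 120 hpi in WT cells. R35A cells had 171 and 165 CPM at 0 hpi, 157 and 151 at 1 hpi, 148 and 142 at 3 hpi, 182 and 184 at 18 hpi and 679 and 721 at 120 hpi. The R35K cells had 174 and 171 CPM at 0 hpi, 197 and 199 at 1 hpi, 219.6 and 227 at 18 hpi and 835 and 946 at 120 hpi. R35A libraries from 1 to 6 hpi were thus below their own 0 hpi libraries, where WT and R35K libraries were above theirs. No log2 change up to 18 hpi was past the threshold in any construct, the largest being 0.47 ± 0.038 in WT cells at 18 hpi, which passed with DESeq2 size factors (0.59). At 120 hpi the change was 1.27 ± 0.038 in WT, 1.94 ± 0.037 in R35A and 2.27 ± 0.044 in R35K cells, and the 3 constructs did not overlap.

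Abcg1 (chr17:31057675-31117988, plus strand) encodes the transporter that passes cholesterol to high-density lipoprotein. Its values went down before they went up. WT cells had 34.3 and 33.0 CPM at 0 hpi, 22.9 and 21.9 at 1 hpi, 27.5 and 24.8 at 18 hpi and 220.1 and 204 at 120 hpi. The R35A values were 30.4 and 31.4 CPM at 0 hpi, 21.5 and 20.4 at 1 hpi, 29.0 and 28.7 at 18 hpi and 283 and 276 at 120 hpi. The R35K values were 30.9 and 32.1 CPM at 0 hpi, 27.0 and 23.7 at 1 hpi, 51.0 and 47.7 at 18 hpi and 254 and 255 at 120 hpi. Every 1 hpi library was below every 0 hpi library of its construct. The early change lay at the fold threshold, at -0.57 ± 0.069 in WT (not called, adjusted p = 7.94e-10), -0.59 ± 0.068 in R35A (called, adjusted p = 1.11e-10) and -0.37 ± 0.069 in R35K cells at 1 hpi. Under 6 other settings, and without replicate 2 of R35A at 0 hpi or at 1 hpi, the R35A value was -0.57 to -0.51 and was not called, while 2 other settings, and leaving out replicate 2 of WT at 0 hpi or replicate 1 at 1 hpi, called the WT value (-0.59 to -0.60). In R35K cells Abcg1 was 0.60 ± 0.062 above 0 hpi at 18 hpi, a call lost without replicate 1 at 0 hpi (0.58) or at 18 hpi (0.56).

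Apoe (chr7:19696109-19699188, minus strand) encodes apolipoprotein E, which macrophages secrete and which accepts effluxed cholesterol and guides lipoproteins to their receptors. In WT cells it stood at 17.1 and 20.9 CPM at 0 hpi, 27.4 and 28.4 at 1 hpi, 24.8 and 27.6 at 3 hpi, 30.8 and 29.3 at 6 hpi, 52.0 and 51.3 at 18 hpi and 8431 and 7782 at 120 hpi. In R35A cells it had 19.3 and 21.2 CPM at 0 hpi, 317 and 320.0 at 1 hpi, 367 and 375 at 3 hpi, 328 and 319.6 at 6 hpi, 591 and 617 at 18 hpi and 16919 and 15014 at 120 hpi. R35K cells had 22.0 and 22.3 CPM at 0 hpi, 595 and 580.4 at 1 hpi, 966 and 964 at 18 hpi and 14069.6 and 12992 at 120 hpi. The R35A and R35K libraries at 1 hpi were all above the WT libraries at 18 hpi, as they were for Msr1, Cd68, Cd36, Plin2, Fabp4 and Scarb1. No other member separated the 2 substitution constructs from WT as widely at 1 hpi. Apoe was 15.4-fold higher at 1 hpi than at 0 hpi in R35A and 25.6-fold in R35K cells. The WT change at 1 hpi, 0.58 ± 0.067 on the log2 scale, was just short of the threshold and passed it with DESeq2 (0.59) and without replicate 2 of WT at 0 hpi (0.73) or replicate 1 at 1 hpi (0.62). Its value at 3 hpi also passed without replicate 2 at 0 hpi (0.61, against 0.47), and the call at 6 hpi, 0.65 ± 0.067, was lost without replicate 1 at 0 hpi (0.51). Most of the WT rise came after 18 hpi, with a log2 change of 7.17 ± 0.052 from 18 to 120 hpi.

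In the same 1 hr, 9 of the 10 fibroblast markers were called higher in WT (median log2 change 0.99) and 9 of 10 in R35A cells (1.09), and all 8 macrophage markers were called higher in both (medians 3.91 and 5.62). Summed fibroblast markers were 3658 and 3654 CPM in the WT libraries at 1 hpi, 4964 and 4914 in R35A and 3825 and 3705 in R35K. Summed neutrophil markers fell from between 36.7 and 49.0 CPM at 0 hpi to between 1.58 and 3.99 CPM at 1 hpi. The part of feeder RNA, or of other changes in the mix of cells, in the early rise of the 10 genes was not tested. At 120 hpi all 10 fibroblast markers were called lower than at 0 hpi in WT cells (median -4.06), and the 10 genes of interest were all called higher. Lum, one of the fibroblast markers, was at 0 counts in 6 libraries, and the other 9 were detected in all 36.

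Between 1 and 3 hpi the courses of the receptors parted in WT cells, a comparison added after the values had been seen. Cd36 fell by 0.68 ± 0.046 on the log2 scale, Msr1 by 0.99 ± 0.069 and Lpl by 0.84 ± 0.044, the 3 of 10 genes called lower, where 0.683% of all genes were, and none was called higher (0.353% of all genes). Cd68 changed by -0.55 ± 0.058, under the fold threshold, and by -0.59 without replicate 2 at 3 hpi, which passed. None of the 10 was called in R35A cells, with 8 at an unadjusted p under 0.05, or in R35K cells, with 7, where 0.553% and 0.347% of all genes were called in either direction, and DESeq2 called none in either. In R35A cells the same 3 genes had log2 changes of 0.12 ± 0.041, 0.39 ± 0.044 and 0.29 ± 0.04, and in R35K cells -0.23 ± 0.04, -0.14 ± 0.041 and -0.13 ± 0.039. The difference between constructs in the change from 0 hpi was larger at 3 hpi than at 1 hpi for Msr1, Cd36 and Lpl in R35A cells, a step that was not itself tested. Of the macrophage markers 2 of 8 were called lower between 1 and 3 hpi in WT cells (median -0.52), and none of the 10 fibroblast markers was called, with a median of 0.082.

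To ask whether the substitution of arginine 35 changes the course, the log2 change from 0 hpi in R35A cells was set against that in WT cells. At 0 hpi itself none of the 10 genes differed between R35A and WT cells by edgeR, DESeq2 or an unadjusted p under 0.05, and 0% of all genes were called. At 0 hpi both R35A replicates lay above both WT replicates for 4 of the 10 genes and below them for 1, beside 18% and 22.3% of all genes tested. At 1, 3 and 6 hpi they lay above for 8 and below for 2, beside 39.8%, 36.7% and 34.4% of all genes above and 34.6%, 34.1% and 34.6% below. At 18 hpi they lay above for 9 and below for 1, beside 34.3% and 29.1%. At 1, 3, 6 and 18 hpi in turn 6, 7, 7 and 7 genes were called higher in R35A cells in the direct comparison and none lower, beside 8.51%, 7.95%, 6.2% and 6.9% of all genes called higher and 10.8%, 9.04%, 7.52% and 3.17% called lower. In the difference of the changes, 5, 6, 6 and 5 genes were called higher in R35A cells at these times and none lower, where 5.29%, 5.53%, 4.26% and 5.47% of all genes were called higher and 8.74%, 7.43%, 5.99% and 2.89% lower. At 120 hpi 3 genes were called higher and 1 lower, beside 9.85% and 4.63% of all genes.

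Apoe had the largest difference at every time up to 18 hpi, 3.37 ± 0.089 at 1 hpi (adjusted p = 7.21e-34), 3.69 ± 0.09 at 3 hpi and 3.43 ± 0.087 at 18 hpi. Msr1 followed, with 1.37 ± 0.22 at 1 hpi (adjusted p = 7.05e-06) and 2.75 ± 0.23 at 3 hpi. Cd68 differed by 1.26 ± 0.10 at 1 hpi (adjusted p = 1.35e-14) and Cd36 by 0.77 ± 0.067 (adjusted p = 8.28e-14). Both receptors differed more at 3 hpi, by 1.98 and 1.58. Plin2 kept nearly one difference from 1 to 18 hpi, between 0.71 and 0.84. Lpl was not called at 1 hpi, at -0.073 ± 0.10 (adjusted p = 0.718), and differed by 1.06 ± 0.10 at 3 hpi, and its direct difference at 18 hpi (0.62 ± 0.039) was under the fold threshold with DESeq2 size factors (0.56). Fabp4 had differences of 0.31 ± 0.30 at 6 hpi to 0.70 ± 0.29 at 18 hpi, with adjusted p of 0.549 and 0.109, and was not called, although its direct comparison with WT was called from 1 to 18 hpi. That of 6 hpi (0.68 ± 0.14) was lost without replicate 1 of WT at 6 hpi (0.54), the library in which CT010467.1 took the largest share.

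Neither efflux transporter was called from 1 to 18 hpi. The Abca1 libraries of R35A cells were below those of WT cells at each of these times, with differences of -0.24 ± 0.054, -0.27 ± 0.055, -0.21 ± 0.054 and -0.37 ± 0.054 at 1, 3, 6 and 18 hpi that had adjusted p of at most 0.00177 but were under the fold threshold. Abcg1 differed by -0.018 ± 0.10 at 1 hpi, a value that was 0.045 with DESeq2 size factors, and by 0.25 ± 0.093 at 18 hpi (adjusted p = 0.0442). Scarb1 differed by -0.074 ± 0.073 at 1 hpi and by 0.38 ± 0.073 at 18 hpi, neither called. In the same comparison at 1 hpi, 2 of 10 fibroblast markers were called higher in R35A cells (median 0.32) and all 8 macrophage markers (median 1.95), and their part in the differences was not tested.

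At 120 hpi Abca1 joined the genes called and Lpl had turned to lower. Abca1, Msr1 and Apoe were higher in R35A cells by 0.67 ± 0.052, 0.73 ± 0.21 and 0.88 ± 0.081 relative to 0 hpi (adjusted p = 2.18e-15, 0.0219 and 4.75e-13), and Lpl was lower, with a difference of -0.88 ± 0.10 (adjusted p = 1.31e-10). The Msr1 call was lost without replicate 1 of WT at 0 hpi (0.55, adjusted p = 0.262) or replicate 1 of R35A at 0 hpi (0.63, adjusted p = 0.104), while the direct comparison at 120 hpi, 0.72 ± 0.034, does not use those libraries. Abcg1 (0.53 ± 0.077) leaned the same way as Abca1 and stayed under the fold threshold. Plin2 (-0.28 ± 0.051), Scarb1 (-0.39 ± 0.069) and Cd36 (-0.18 ± 0.065) had negative differences under the fold threshold, and Fabp4 (-0.57 ± 0.26) had an adjusted p of 0.125. Both R35A replicates lay above both WT replicates for 5 genes and below them for 5 at 120 hpi, beside 36.9% and 28.8% of all genes, and in the direct comparison 3 were called higher and 1 lower, beside 12.4% and 6.38% of all genes. Fibroblast markers summed to 234 and 204 CPM in WT and 749 and 755 CPM in R35A cells at 120 hpi, and 8 of the 10 were called higher in R35A cells relative to 0 hpi (median 1.54). Whether they bear on the higher Abca1 and Apoe was not tested. Of the 8 macrophage markers 1 was called (median 0.19).

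**Figure D3:**
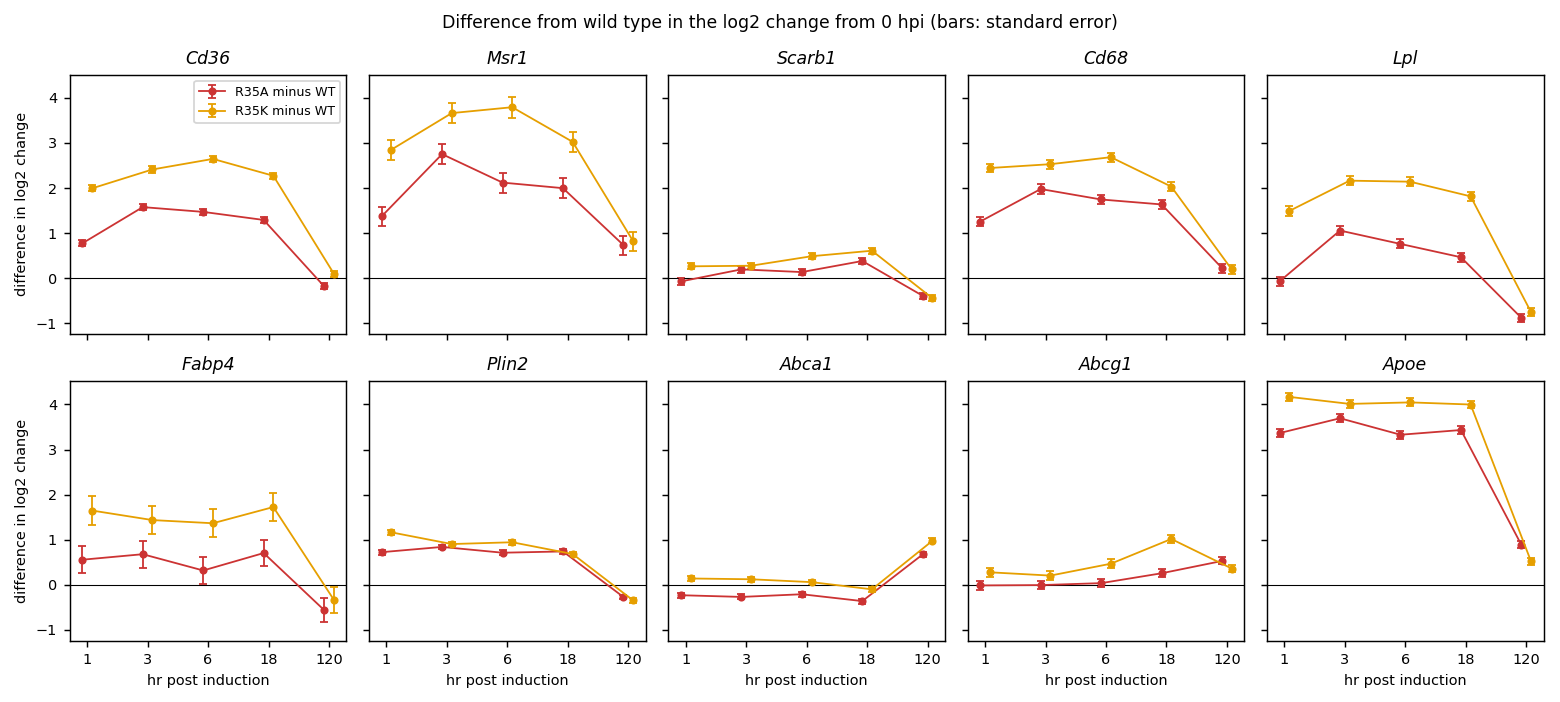
Difference from WT in the log2 change from 0 hpi, for R35A (red) and R35K (orange) cells, against hr post induction (equally spaced categories), with standard errors as bars. Apoe lies at 3.33 or above in both from 1 to 18 hpi, Lpl in R35A cells goes from -0.073 at 1 hpi to -0.88 at 120 hpi, and Abca1 is highest at 120 hpi in both.

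The R35A effect was then compared between its 2 ends, as the R35A minus WT difference at 120 hpi less that at 1 hpi. It was called lower at 120 hpi for 7 of the 10 genes and higher for 1, beside 8.31% and 15.5% of all genes. Apoe fell by 2.48 ± 0.063 on the log2 scale, from 3.47 at 1 hpi to 0.99 at 120 hpi. Lpl turned from 0.08 to -0.73, and Plin2 from 0.78 to -0.22. Abca1 was the exception, going from -0.25 to 0.66, a change of 0.91 ± 0.052 (adjusted p = 9.55e-21). Abcg1 moved the same way by 0.54 ± 0.084 and Scarb1 the other way by -0.32 ± 0.064, both under the fold threshold.

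The R35K counts were deposited in a table of their own, so the construct and the table cannot be told apart, and tests across the tables used only the change of each construct from its own 0 hpi. Levels of R35K cells set beside those of the other constructs are a description across tables. Against WT, 7, 7, 7 and 9 of the 10 genes were called higher in R35K cells at 1, 3, 6 and 18 hpi, beside 6.84%, 6.14%, 7.66% and 8.91% of 17277 genes, and none lower, beside 5.08%, 3.87%, 4.53% and 4.42%. Apoe differed by 4.17 ± 0.089 at 1 hpi, Msr1 by 2.85 ± 0.22, Cd68 by 2.44 ± 0.10 and Cd36 by 1.99 ± 0.067. Lpl, which did not separate R35A from WT at 1 hpi, was 1.49 ± 0.10 higher in R35K cells, and Fabp4 was 1.65 ± 0.32 higher. Abcg1 was called at 18 hpi, at 1.01 ± 0.091, and Abca1 was not called from 1 to 18 hpi, with 0.14 ± 0.058 at 1 hpi and -0.10 ± 0.057 at 18 hpi. The calls of Scarb1 (0.61 ± 0.07) and Plin2 (0.68 ± 0.05) at 18 hpi were lost with DESeq2 size factors (0.50 and 0.57), which shifted the median of all genes there by -0.11 and the share of calls that were higher from 66.8% to 52.8%. Without replicate 1 of WT at 0 hpi or of R35K at 18 hpi the Scarb1 value was 0.55 or 0.58, also under the threshold.

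At 120 hpi Abca1 (0.97 ± 0.056) and Msr1 (0.82 ± 0.21) were called higher and Lpl (-0.76 ± 0.10) lower in R35K than in WT cells, where 7.51% and 2.63% of all genes were called. Apoe, at 0.51 ± 0.08, was under the fold threshold and passed it without replicate 1 of WT at 0 hpi (0.66). The Msr1 call, with an adjusted p of 0.0198, was lost without replicate 1 of WT at 0 hpi (adjusted p = 0.23) or either R35K replicate at 0 hpi (adjusted p = 0.0637 and 0.0763). The R35A and R35K comparisons with WT share the WT libraries, so their likeness is not independent evidence.

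R35K was also set against R35A. Of the 10 genes 6, 3, 6 and 5 were called higher in R35K cells at 1, 3, 6 and 18 hpi and none lower, beside 4.15%, 2.25%, 4.69% and 2.26% of all genes called higher and 1.68%, 0.764%, 1.2% and 1.19% lower. Lpl differed most at 1 hpi, by 1.52 ± 0.094 (adjusted p = 7.31e-19), then Msr1 by 1.44 ± 0.20, Cd36 by 1.18 ± 0.065, Cd68 by 1.143 ± 0.092, Fabp4 by 1.05 ± 0.28 and Apoe by 0.76 ± 0.078. Plin2 (0.40 ± 0.05), Abca1 (0.33 ± 0.057), Scarb1 (0.29 ± 0.068) and Abcg1 (0.25 ± 0.10) were not called. At 120 hpi none of the 10 was called by edgeR or DESeq2, with 4 at an unadjusted p under 0.05, and 1.61% of all genes were called. Cd36 and Lpl were called at all 4 times from 1 to 18 hpi, with differences of 0.81 to 1.18 and 1.08 to 1.52. The Fabp4 calls at 1, 6 and 18 hpi and the Msr1 calls at 3 and 18 hpi were lost without replicate 2 of R35A at 0 hpi, with adjusted p of 0.0842, 0.0845, 0.13, 0.182 and 0.101. Without replicate 1 of R35K at 0 hpi the Msr1 call at 3 hpi was lost (adjusted p = 0.0614), and without replicate 2 both that call (adjusted p = 0.0776) and the Fabp4 call at 18 hpi (adjusted p = 0.0608). A further 3 values, uncalled over all libraries, passed without 1 library: Cd68 at 3 hpi and Apoe at 18 hpi without replicate 1 of R35A at 0 hpi (0.62 and 0.61), and Fabp4 at 3 hpi without replicate 1 of R35A at 3 hpi (0.90). With DESeq2 size factors the share of called genes that were higher in R35K went from 71.2% to 58.5% at 1 hpi and from 79.6% to 66.3% at 6 hpi.

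How far each gene had come by 1 hpi can be read as the share of its own log2 change to 120 hpi, a description of mean levels. In WT cells this share was highest for Msr1 (43.9%) and Lpl (38.6%) and lowest, apart from Abca1 and Abcg1, for Apoe (6.38%). In R35A cells Msr1 (55.4%), Cd36 (51.7%) and Cd68 (46.9%) led, and Apoe was at 41.3%. R35K cells were further along for each of the 8 genes other than Abca1 and Abcg1, from 45% for Scarb1 to 78.7% for Cd36. Abca1 and Abcg1 stood between -22.1% and 8.47% at 1 hpi in the 3 constructs. Between 1 and 18 hpi the WT shares of Cd36, Scarb1 and Cd68 moved from 27%, 23.9% and 28.3% to 23.2%, 15.1% and 28.7%.

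**Figure D4:**
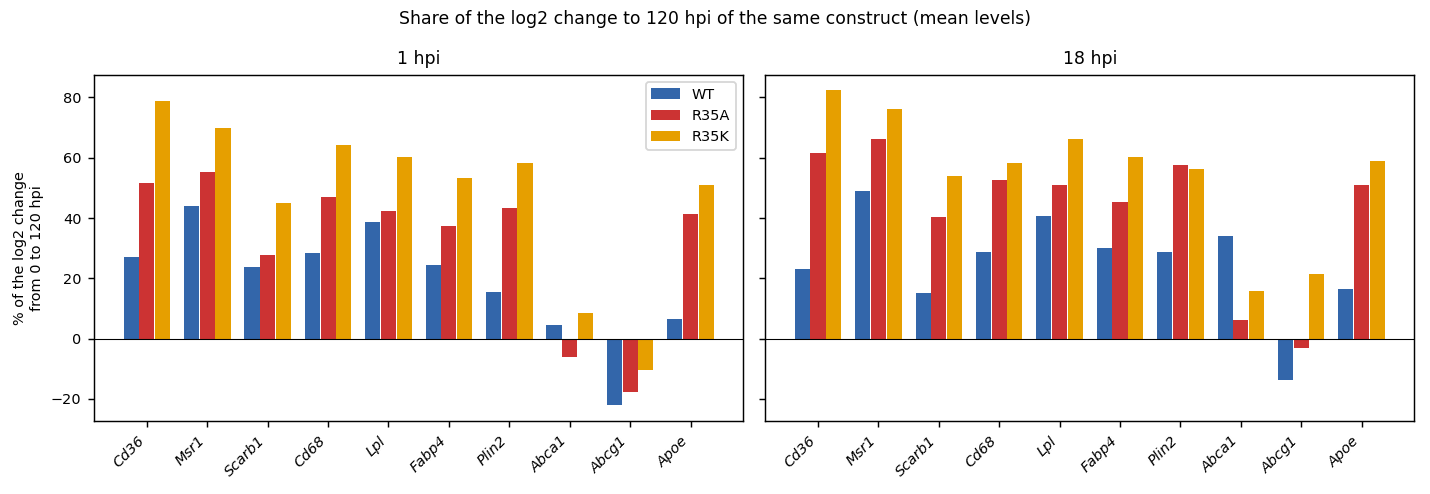
Percent of the log2 change from 0 to 120 hpi that each gene had reached at 1 hpi (left) and 18 hpi (right), from the mean of 2 replicates of each construct. At 1 hpi R35K bars are the tallest for every gene but Abcg1, Apoe in WT is at 6.38%, and the Abcg1 bars lie below 0.

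From 18 to 120 hpi all 10 genes were called higher in all 3 constructs, beside 27.5%, 24.5% and 24.7% of all genes. The step was largest in WT cells for 8 genes, among them Apoe (7.17 ± 0.052 in WT, 4.62 ± 0.044 in R35A, 3.75 ± 0.033 in R35K), and smallest in WT cells for Abca1 (0.79 ± 0.036, 1.83 ± 0.037 and 1.94 ± 0.043). Abcg1 rose by 2.90 ± 0.054, 3.17 ± 0.051 and 2.31 ± 0.05. These steps were tested within each construct and not against each other.

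Levels were compared between genes on a scale corrected for length, counts per base of exon scaled as for TPM to the same sum in each library. Exon length was the union of the exons of all annotated transcripts of a gene. For Fabp4 this union, 4489 bases, covered the whole gene, so introns counted as exon. Its length-scaled level may therefore be too low, and its place in the orders below is uncertain. At 0 hpi the order in WT cells was Plin2 (152), Cd36 (77.0), Abca1 (69.6), Cd68 (41.6), Apoe (37.6), Scarb1 (25.6), Abcg1 (19.5), Lpl (3.13), Fabp4 (1.35) and Msr1 (1.28). The replicates of Cd68 and Apoe overlapped there, as did those of Fabp4 and Msr1. At 120 hpi Apoe led in WT cells at 10741, rank 5 of 39119 genes with a length, and Cd68 came next at 2482, rank 34. Lpl (1101), Plin2 (918), Cd36 (668), Msr1 (387) and Abca1 (122) followed. Abcg1 (82.3) and Scarb1 (78.1) overlapped, and Fabp4 (73.7) was lowest with the length used here. In R35A cells Apoe reached 20524, rank 2, Plin2 (760.2) stood above Lpl (640.0), and Msr1 (613) above Cd36 (555). Apoe in R35K cells was at 17789.8, rank 3, and the replicates of Plin2 and Lpl, of Lpl and Cd36, and of Scarb1 and Fabp4 overlapped there.

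**Figure D5:**
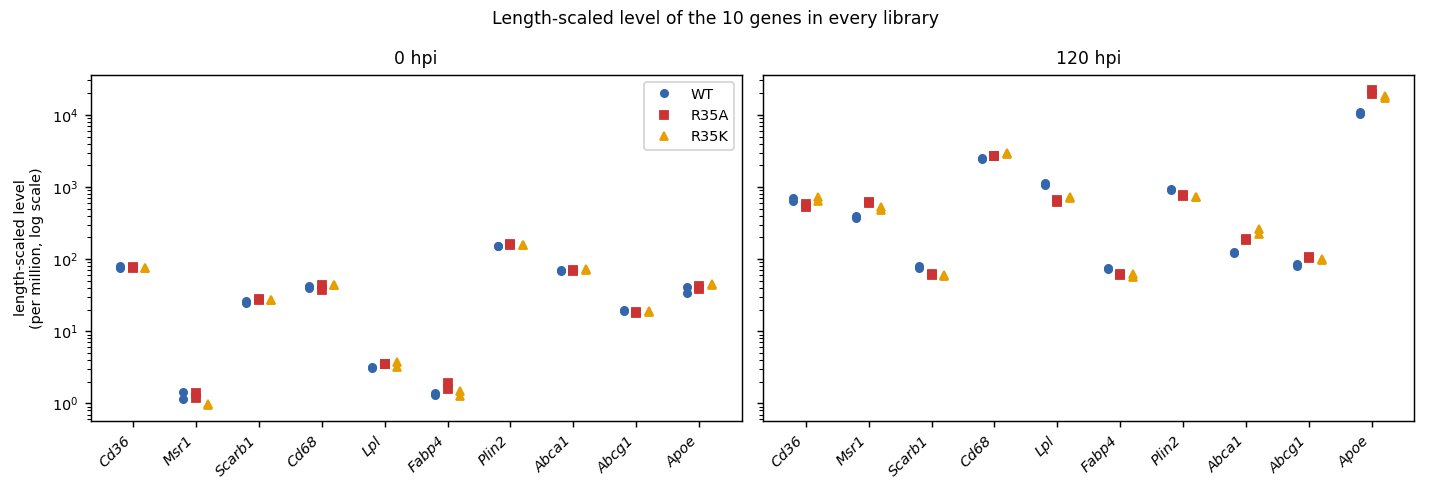
Length-scaled level (TPM scale, log axis) of the 10 genes in every library at 0 hpi (left) and 120 hpi (right), by construct. Plin2 is highest at 0 hpi near 152 to 160 in all 3 constructs, and Apoe at 120 hpi, from 10741 in WT to 20524 in R35A.

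Across the 18 group means, Abca1 and Abcg1 were more like each other than like the rest, with a Pearson r of 0.956 between them against 0.626 to 0.852 with the other 8 members, which had r of 0.892 to 0.988 among themselves. These correlations share the libraries and the step to 120 hpi and are given as a description. Among 10662 genes with at least 10 CPM in some group, the gene most like Msr1 was Itgam, the α chain of Mac-1 (r = 0.998), and that most like Cd68 was Ctsb, the lysosomal protease cathepsin B (0.997). Cd36 was most like Cyp4v3 (0.989), Scarb1 like Capza2 (0.994), Lpl like Cd300ld (0.994), Fabp4 like Sat1 (0.998) and Plin2 like Stard9 (0.995). Abca1 was most like Ulk2 (0.983), Abcg1 like AU040320 (0.988) and Apoe like Cndp2 (0.994). The next genes were Kcnn4 and Ctss for Cd36, Clec5a and Pirb for Msr1, Bcl2a1d and Pik3r6 for Scarb1, Mfsd12 and Plxnc1 for Cd68, Clec7a and Tubb2a for Lpl, Hacd4 and Atp6v1b2 for Fabp4, Metrnl and Psap for Plin2, Mavs and Vezt for Abca1, Ogdh and Iigp1 for Abcg1, and Pld4 and Coro1c for Apoe.

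Other scavenger receptors, 17 genes of which 16 were tested, were followed as the surroundings of the 4 receptors. From 0 to 120 hpi in WT cells 9 were called higher and 4 lower, beside 23.1% of all genes higher and 40.2% lower, with a median log2 change of 2.17 (2.31 with counts set to at least 3). Mrc1, the mannose receptor, rose from 2.07 to 2686 CPM (10.22 ± 0.079) and Stab1, stabilin-1, from 3.63 to 1525 CPM (8.58 ± 0.081). Cd163, the haemoglobin receptor, had 0 and 1 counts in the WT libraries at 0 hpi and 25.7 CPM at 120 hpi. Vldlr, the receptor for very-low-density lipoprotein, fell from 27.4 to 0.824 CPM and Scarf2 from 27.5 to 1.90, and Scara3 went from 7.87 to 0.0477 CPM, under 3 counts a library. In the R35A minus WT difference at 1 hpi 5 of 16 were called higher and none lower, beside 5.29% of all genes called higher and 8.74% lower, with a median of 0.37 (0.41 with counts set to at least 3). Stab1 differed by 2.44 ± 0.20, at 123 CPM against 19.3, and Cxcl16, a chemokine that also binds oxidized lipoprotein, by 2.07 ± 0.20. Stab2 was also called at 1 hpi but lay at 0.18 to 0.57 CPM, too few counts for a fold. At 120 hpi 4 were called higher and 2 lower, beside 9.85% of all genes called higher and 4.63% lower. Vldlr differed by 2.90 ± 0.27 and Stab2 stood at 22.0 CPM in R35A against 7.50 in WT cells, while Olr1, the lectin-like receptor for oxidized lipoprotein, differed by -2.71 ± 0.23.

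Genes of LXR signalling and cholesterol efflux, 18 tested of 19, were called higher in 12 cases and lower in 1 from 0 to 120 hpi in WT cells, with a median of 1.504 (1.63 with counts set to at least 3). Nr1h3, which encodes LXRα, rose from 0.452 to 5.75 CPM (3.51 ± 0.34) and Cyp27a1, the sterol 27-hydroxylase, from 1.99 to 61.3 CPM. Apoc1, which lies beside Apoe in the genome, was at 0 counts in both WT libraries at 0 hpi and at 26.5 CPM at 120 hpi. Scd1, stearoyl-CoA desaturase, fell from 264 to 40.6 CPM. None of the 18 was called in the R35A minus WT difference at 1 hpi by edgeR, with 11 at an unadjusted p under 0.05 and a median of 0.195 (0.24 with counts set to at least 3), where 14% of all genes were called in either direction. At 120 hpi Ch25h, cholesterol 25-hydroxylase, was 2.99 ± 0.49 and Scd1 0.70 ± 0.071 higher, and Cyp27a1 was -1.05 ± 0.25 in R35A relative to WT cells, the 3 of 18 that were called, beside 9.85% of all genes called higher and 4.63% lower. In WT cells from 0 to 120 hpi the shares were 23.1% of all genes higher and 40.2% lower.

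Of the PPAR and fatty acid genes, 16 tested of 19, 6 were called higher and 3 lower from 0 to 120 hpi in WT cells, with a median of 0.48 (0.61 with counts set to at least 3). Fabp5, a fatty acid carrier like Fabp4, rose from 13.9 to 296 CPM, Pparg from 1.92 to 25 CPM and the fatty acid transporter Slc27a1 from 27.9 to 109 CPM. Lipg, endothelial lipase, fell from 28.1 to 0.507 CPM, Angptl4, an inhibitor of lipoprotein lipase, from 11.6 to 3.49 and Pdk4, a pyruvate dehydrogenase kinase, from 26.6 to 18.4. The calls in WT cells stood beside 23.1% of all genes higher and 40.2% lower. At 1 hpi 4 were called higher and 1 lower in R35A relative to WT cells, beside 5.29% of all genes called higher and 8.74% lower, with a median of 0.039 (0.083 with counts set to at least 3), with Fabp5 at 1.18 ± 0.13, Slc27a1 at 1.06 ± 0.10 and Angptl4 at 0.81 ± 0.14. At 120 hpi Pdk4 (1.18 ± 0.11) and Fabp3 (0.95 ± 0.35) were higher and Pparg (-0.99 ± 0.27) lower, 3 of 16 beside 9.85% of all genes called higher and 4.63% lower.

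Of the genes for lipid droplets, lipases and cholesterol esters, 16 tested of 20, 11 were called higher and 2 lower from 0 to 120 hpi in WT cells, with a median of 1.69 (1.82 with counts set to at least 3). Hilpda, an inhibitor of the droplet lipase ATGL, rose from 19.3 to 371 CPM, Nceh1, a cholesterol ester hydrolase, from 18.7 to 194 and Soat1, which makes cholesterol esters, from 59.9 to 577. Mgll, monoglyceride lipase, fell from 9.18 to 3.00 CPM and Faf2 from 130.03 to 76.5. These calls stood beside 23.1% of all genes higher and 40.2% lower. The same 3 rising genes were those called higher at 1 hpi in R35A relative to WT cells, Nceh1 by 0.95 ± 0.10, Hilpda by 0.76 ± 0.087 and Soat1 by 0.66 ± 0.062, and the median of the list was 0.012 (0.14 with counts set to at least 3). Of all genes 5.29% were called higher and 8.74% lower there. At 120 hpi 3 were called lower in R35A cells and none higher, beside 9.85% of all genes called higher and 4.63% lower. Hilpda had a difference of -1.17 ± 0.082, and the triglyceride synthesis genes Dgat2 and Dgat1 had -0.95 ± 0.27 and -0.83 ± 0.10. The 4 lists, like the 10 genes, were described by counts and medians, and no test compared them with other genes.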

How the data were processed

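Poly(A) RNA of 36 libraries (3 constructs, 6 times, 2 replicates) was sequenced as single-end reads from stranded mRNA libraries. Per the methods, reads were mapped by the authors with STAR 2.5.0a against mm10, and raw counts per gene from STAR's own gene counting were deposited in 1 table for WT and R35A (24 libraries) and 1 for R35K (12 libraries), both with 40354 genes. The strand column and the annotation release are not given in the sources used here, so reads of a gene and of an overlapping antisense gene may not be told apart. The authors also deposited log2 tables of 19067 genes, which equal log2(count/size factor + 1) within 0.001 for 100% of values and served as a check of the counts. DESeq2 1.14.1 is named for the authors' normalization.

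Counts were fitted as deposited with edgeR 4.0.16 (limma 3.58.1, R 4.3.3), TMM scaling, filterByExpr and quasi-likelihood F-tests, in 1 fit of the 24 libraries, 1 of the 12, and 1 of all 36 for R35K against WT and R35A. P-values were adjusted by the Benjamini-Hochberg method over all genes tested, 16988, 16434 and 17277, and a gene was called at 1.5-fold or more and an adjusted p of at most 0.05. Total counts ran from 13044456 to 23131776, which bounds the precision of low genes such as Msr1 and Fabp4 at 0 hpi. Replicates are not pooled, and none were duplicates (chi-square per degree of freedom 1.12 to 16.5, median 2.05). The lowest values, 1.12 in R35A at 6 hpi and 1.14 in WT at 1 hpi, were near counting noise alone, and the highest was WT at 6 hpi. The common coefficient of variation between replicates was 3.17% in the fit of 24 libraries and 3.49% in that of 12. The small standard errors and p-values rest on this narrow spread between libraries. Same-numbered replicates did not deviate together (median r = -0.0058 over 153 pairs of groups and 11903 genes, 6 pairs over 0.1), so the number was not used as a block. The steps were also run on simulated data with known changes and the same spread for all genes. That run concerns the steps and not the spread of these libraries.

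CPM used TMM factors of all 36 libraries. Each fit used the factors of its own libraries, so fitted changes and ratios of the printed CPM need not be equal. Length-scaled levels used exon lengths of GENCODE M21, which held the symbols of 39171 genes (97.07%). The 39119 genes whose symbol had a single entry were used. Promoters came from RefSeq. Python 3.11.15, pandas 2.3.3 and matplotlib 3.10.9 were used for these and the plots. Alternatives were DESeq2 1.42.0, its size factors, other filters, other sets of libraries, a replicate block, a 2-fold threshold, an unadjusted p and leaving out each library. The 10 genes and the gene lists were chosen with earlier results of these data known, and the comparison of 3 with 1 hpi was added after the values had been seen. Named from each list were up to 3 called genes with the largest change each way from 0 to 120 hpi in WT, and up to 3 with the largest R35A minus WT difference at 1 and at 120 hpi whose replicates did not overlap. For each of the 10 genes, the 3 genes with the highest correlation over the 18 group means were named, leaving out symbols of unnamed genes (Gm with a digit, or ending in Rik).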

Additional observations from a re-analysis of the deposited data

Results flagged for a closer look

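The difference between R35A and WT cells itself differed between 1 and 120 hpi for 8 of the 10 genes, by a test of the R35A minus WT log2 difference at 120 hpi less that at 1 hpi (edgeR's quasi-likelihood test, 2 replicates in each of 4 groups). Of all genes 15.5% were called higher and 8.31% lower in this test. It was -2.48 for Apoe (adjusted p = 6.78e-35), -1.12 for Fabp4 (adjusted p = 8.56e-09), -1.04 for Cd68 (adjusted p = 3.42e-20) and -0.996 for Plin2 (adjusted p = 3.06e-23), all smaller at 120 than at 1 hpi. Cd36 had -0.95 (adjusted p = 6.48e-20), Lpl -0.81 (adjusted p = 8.23e-19) and Msr1 -0.64 (adjusted p = 2.49e-12). Abca1 went the other way, with a change of 0.91 (adjusted p = 9.55e-21). All 8 macrophage markers were called lower in the same test, with a median of -1.70, while the median of all genes was 0.14. Fibroblast markers summed to 3654 and 3658 CPM in WT and 4914 and 4964 CPM in R35A cells at 1 hpi, and to 204 and 234 CPM against 749 and 755 CPM at 120 hpi, and their part in these changes was not tested.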

How the results depend on the processing

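Counts of calls over the 10 genes stayed within 1.5 times of the reported ones under all alternatives but a 2-fold threshold, which left 18 of 31 for R35A against WT at each time, 16 of 26 for the R35A minus WT difference in change, 13 of 20 for R35K minus R35A, 3 of 8 for the R35A effect at 120 against 1 hpi, and 0 of 3 for 3 against 1 hpi. Leaving out 1 library gave 30 to 31, 25 to 26, 15 to 22, 8 to 8 and 3 to 4 for these, and 32 to 35 calls of change from 0 hpi in WT cells (32 with all libraries). The replicate block changed none of the calls, and its counts were 31, 26, 20, 8 and 3. Same-numbered replicates share only a number here. Some uncalled values near 0 changed sign. Abcg1 in R35A minus WT was -0.018 at 1 hpi and 0.0452 with DESeq2 size factors, 0.0448 with DESeq2, 0.0271 with at least 10 counts, 0.0269 in the joint fit, 0.00764 with no filter and 0.00122 with only the groups compared. At 3 hpi it was -0.0104, and under the same settings in order 0.0335, 0.0342, 0.0155, 0.0161 and, with only the groups compared, 0.00966. Plin2 at 3 against 1 hpi in WT was -0.00486, and in that order 0.00868, 0.00979, 0.0209, 0.0190, 0.00533 with no filter and 0.0200 with only the groups compared. Plin2 in R35K minus R35A at 3 hpi was 0.037, and -0.000728 with DESeq2 size factors. Leaving out 1 library gave ranges across 0 for R35A against WT at 0 hpi in Cd36 (-0.0627 to 0.0185), Msr1 (-0.168 to 0.160), Cd68 (-0.168 to 0.0499), Abca1 (-0.0353 to 0.0163) and Apoe (-0.0342 to 0.246), and at 1 hpi in Scarb1 (-0.00921 to 0.0953). For R35A minus WT they were -0.132 to 0.00294 for Scarb1 at 1 hpi, and for Abcg1 -0.0532 to 0.0603, -0.0733 to 0.0495 and -0.00182 to 0.0715 at 1, 3 and 6 hpi. For R35K minus R35A they were -0.00199 to 0.0744 for Plin2 at 3 hpi, and at 120 hpi -0.0255 to 0.186 for Msr1 and -0.145 to 0.0718 for Cd68. For 3 against 1 hpi they were -0.0305 to 0.0201 for Plin2 in WT, -0.177 to 0.140 for Fabp4 in R35A and -0.0805 to 0.108 for Abcg1 in R35K. The cause was not tested. Depth limits Msr1 and Fabp4 most, which had the lowest counts at 0 hpi.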

Other observations

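Markers of other cell types were counted in the same libraries. The summed level of neutrophil markers went from between 36.7 and 49.0 CPM at 0 hpi to between 1.57 and 3.99 CPM at 1 hpi and between 1.38 and 10.1 CPM at 120 hpi. Endothelial markers summed to between 9.11 and 11.5 CPM at 0 hpi and to between 2.21 and 6.42 CPM at 120 hpi. B cell markers were between 513 and 1696 CPM at 1 hpi.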
